A study of Mus musculus with 8 samples.

Results

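Mature goblet cells of the mouse small intestinal crypt were examined as the cells rich in the products of Zg16 and Clca1. They were chosen by their own counts from 1 expression matrix per genotype. A barcode was a member when it held at least 1500 UMIs (unique molecular identifiers, tags that count captured mRNA molecules) and at least 200 genes, drew at most 30% of its UMIs from mitochondrial genes and under 20% from genes whose symbol starts with Defa, and drew at least 1% from Tff3, Agr2, Fcgbp, Muc2, Zg16 and Clca1 together with at least 0.3% from Zg16 and Clca1. The rule found 2322 members among 16469 barcodes that passed the UMI, gene and mitochondrial limits, of 28750 deposited barcodes. The control matrix held 1584 of them and the enhancer deletion matrix 738.

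The study profiled single cells of crypts to ask how loss of ieCtnnb1, an intestinal enhancer of Ctnnb1 (the gene for β-catenin), alters the crypt epithelium. Both groups were adult female mice of C57BL/6 background from which live, EpCAM-positive crypt cells had been sorted. The group labelled WT came from H11i.enh mice, in which the ieCtnnb1 core sequence drives a LacZ and iCre reporter from the H11 locus while the endogenous enhancer is present, so that the control also carries a transgene. The group labelled KO came from Ctnnb1Δi.enh mice, in which ieCtnnb1 was removed from the germline with CRISPR/Cas9, so that every cell of the animal lacked it. The labels list 4 samples per group, but the 4 share 1 matrix and no barcode can be assigned to an animal. Each group is therefore 1 pooled sample, and no comparison of the genotypes below has a replicate check or a test. Intervals printed with the values are exact 95% intervals that cover counting error only.

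Goblet cells are the mucus-secreting cells of the gut epithelium. They arise from Notch-inactive progenitors under Atoh1 and Spdef, pack the gel-forming mucin Muc2 into granules after extensive O-glycosylation, and release the granules at the cell apex. Zg16 is a lectin that binds the wall of Gram-positive bacteria, Clca1 is a secreted metalloprotease that processes the mucus, Fcgbp is cross-linked to the mucin network, Tff3 is a trefoil peptide that aids epithelial repair, and Agr2 is a protein disulfide isomerase needed for Muc2 folding. Zg16 and Clca1 are products of differentiated goblet cells, whereas Agr2 and Spink4 are already made by their precursors.

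Promoters of the rule genes are shown because members were chosen by the mRNA of these genes. The RefSeq promoter table (GRCm38.p6) held 3 of the 6, each printed as the 250 bases before the annotated start. Capitals mark a TATAA on either strand or the palindrome CAGCTG, a form of the E-box. The Fcgbp promoter is chr7:28070986-28071235, plus strand. The Muc2 promoter is chr7:141690090-141690339, plus strand. The Agr2 promoter is chr12:35992675-35992924, plus strand.
Fcgbp: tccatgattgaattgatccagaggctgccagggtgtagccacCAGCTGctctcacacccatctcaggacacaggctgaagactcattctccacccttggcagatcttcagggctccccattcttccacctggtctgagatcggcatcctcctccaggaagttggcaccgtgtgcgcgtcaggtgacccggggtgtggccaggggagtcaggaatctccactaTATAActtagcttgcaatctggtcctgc
Muc2: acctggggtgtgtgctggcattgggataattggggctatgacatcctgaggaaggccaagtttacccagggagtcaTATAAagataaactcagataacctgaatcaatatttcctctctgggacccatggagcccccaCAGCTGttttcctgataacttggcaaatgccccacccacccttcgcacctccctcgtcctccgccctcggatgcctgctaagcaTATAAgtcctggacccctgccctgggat
Agr2: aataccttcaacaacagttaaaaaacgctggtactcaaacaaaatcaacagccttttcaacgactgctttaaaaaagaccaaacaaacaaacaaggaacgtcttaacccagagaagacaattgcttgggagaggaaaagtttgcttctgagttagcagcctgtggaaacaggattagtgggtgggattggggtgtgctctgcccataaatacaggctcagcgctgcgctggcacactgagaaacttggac
The Fcgbp window held TATAA 24 to 28 bases before the start and CAGCTG 203 to 208 bases before it. The Muc2 window also held TATAA 24 to 28 bases before the start, a further copy 170 to 174 bases before it, and CAGCTG 107 to 112 bases before it. Neither string was in the Agr2 window. Of all 32851 promoters in the table, 22.8% held TATAA and 13.0% held CAGCTG. A match is a string in the window and not a bound site.

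The label was checked against goblet genes that the rule did not use. Of 28 listed, St6galnac1 had 0 UMIs and 1 was not in the matrices. The remaining 26, each with at least 100 UMIs over members, were at least 2-fold higher in members than in the kept cells of tuft, enterocyte or unassigned composition in each matrix, against 3.27% of 11338 genes. The members were chosen from the same cells whose profiles are compared, so these folds are a description and test nothing. Of these genes, Tpsg1, a tryptase, was 66.2-fold higher in WT and 48.0-fold higher in KO. Bcas1 was 54.3-fold and 43.0-fold higher, Ern2, the stress sensor of mucous epithelia, 20.2-fold and 11.6-fold, and Atoh1, the transcription factor of secretory fate, 16.5-fold and 10.4-fold. The names mature and early were given by the rule, and the early goblet cells were the barcodes that met the same limits but drew less than 0.3% of their UMIs from Zg16 and Clca1.

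Goblet transcripts were also counted in cells of other composition, and whether these came from free RNA or from the cells themselves was not tested. After each cell was thinned to 1500 UMIs, Zg16 was seen in 98.4% of WT and 99.6% of KO members, but also in 58.5% of WT and 45.2% of KO cells without a goblet, Paneth, enterocyte or tuft composition. Clca1 was seen in 91.0% and 73.3% of members and in 11.1% and 3.12% of those other cells. Unthinned medians of these other cells were 7474 UMIs in WT and 13671.5 in KO. Defa24, a Paneth cell α-defensin, stood at 21369 UMIs per 1000000 in WT members and 16428 in KO members, 1.27-fold and 1.29-fold its level in the tuft, enterocyte and unassigned cells. Of immune and stromal marker lists, summed levels in members were 8 and 2 UMIs per 1000000 in WT and 13 and 1 in KO.

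Members of the deletion matrix held more UMIs. The median was 5902 UMIs per member in WT (quartiles 4223.25 and 8845.25) and 18524.5 in KO (10920.5 and 24050), a 3.14-fold difference, against 2.27-fold for early goblet cells, 1.92-fold for Paneth cells and 1.60-fold for enterocytes. The median number of genes was 1819.5 in WT and 3540.5 in KO, and the median mitochondrial share was 5.08% and 5.18%. Within each matrix the 6 rule genes took a smaller share of the deeper members. Spearman's rho between UMIs and the share of the 6 genes was -0.37 over 1584 WT cells and -0.39 over 738 KO cells, where both measures share the same UMI total. Only 79 WT members (4.99%) exceeded 15000 UMIs, whereas 453 KO members (61.4%) did. Levels are therefore given for all members and again within windows of depth that were drawn after the data had been seen. More captured molecules per cell and a real difference in cell size or RNA content cannot be told apart here.

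**Figure D1:**
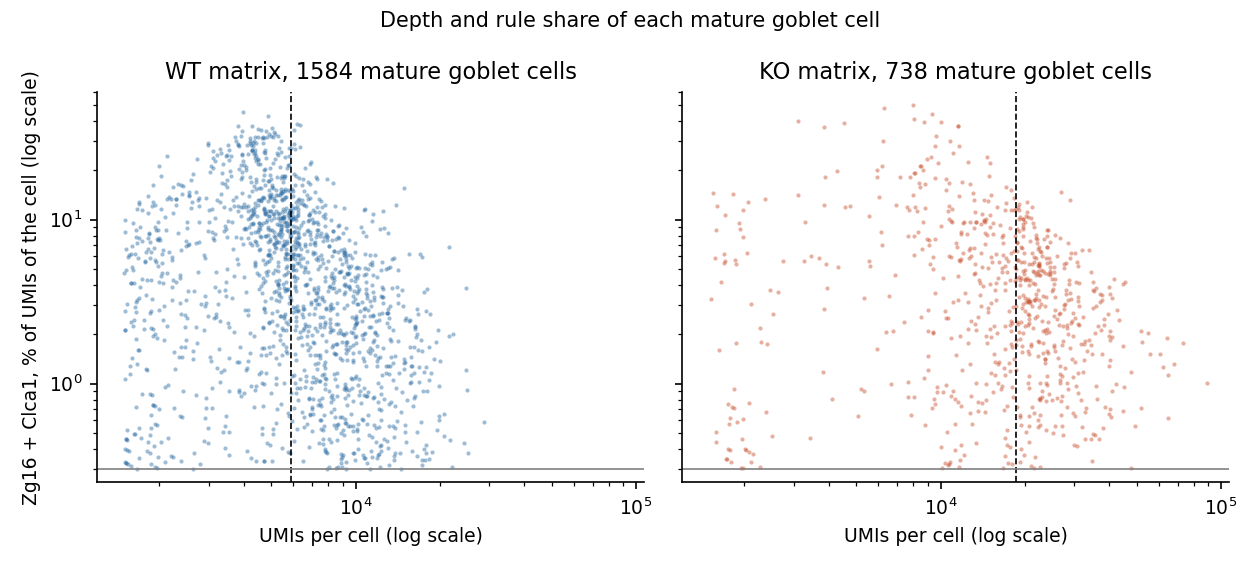
Each point is 1 mature goblet cell of the WT (left) or KO (right) matrix, with its UMIs on a logarithmic x axis and the percentage of its UMIs from Zg16 and Clca1 on a logarithmic y axis. The dashed line marks the median depth, 5902 UMIs in WT and 18524.5 in KO, and the grey line the 0.3% limit of the rule.

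Mature goblet cells took a smaller share of the deletion matrix. They were 1584 of 10588 kept cells in WT (14.96%, 14.3 to 15.7) and 738 of 5881 in KO (12.5%, 11.7 to 13.4), which gives a log2 ratio of -0.25 (-0.38 to -0.13). Of all deposited barcodes, of which 66.2% in WT and 46.1% in KO were kept, members were 9.91% and 5.78% (log2 ratio -0.78). Early goblet cells were 5.24% in WT and 5.53% in KO, and the interval of their log2 ratio (0.08, -0.13 to 0.28) spanned 0. Of mature and early goblet cells together, the mature cells were 74.1% in WT and 69.4% in KO. Paneth cells, here barcodes with at least 20% of UMIs from Defa genes, took 35.3% of WT and 20.5% of KO cells, and outside them the mature goblet share was 23.1% and 15.8%, a log2 ratio of -0.55.

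The direction of the share depended on the depth of the cells counted. Among cells of 1500 to 5000 UMIs, members were 22.7% in WT and 8.72% in KO. Among cells of 5000 to 15000 UMIs they were 18.6% and 9.85%. Above 15000 UMIs the order turned, with 2.60% in WT and 15.7% in KO. With a Defa limit of 5% in place of 20% the log2 ratio was 0.03, and 453 WT members but 97 KO members drew between 5% and 20% of their UMIs from Defa genes.

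The lowest WT and KO members drew 0.3001% and 0.304% of their UMIs from Zg16 and Clca1, while the highest early goblet cells drew 0.2997% and 0.297%. Below 0.6% there were 176 of the 1584 WT and 75 of the 738 KO members. A further 245 WT and 52 KO barcodes met every limit other than that on Defa genes. The 2 matrices shared 57 barcode sequences, 3 of them among WT members and 3 among KO members, and none was a member in both.

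The rule genes themselves are given as a description, since members were chosen by them. Levels are UMIs of the gene per 1000000 UMIs summed over the members (CPM), counted at the 3′ end of transcripts, so that they are compared between groups and not between genes. Zg16 (chr7:127050156-127087328 of GRCm38) stood at 48294 CPM in WT and 39928 CPM in KO (log2 ratio -0.27). Per cell this was 331 and 755 UMIs. Zg16 was thus lower in KO as a share of the transcriptome but higher in molecules captured per cell.

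The other rule genes, apart from Agr2, were further apart. Clca1 (chr3:145003817-145032776) was 4834 CPM in WT and 1461 CPM in KO (log2 ratio -1.73). Muc2 (chr7:141690340-141754693) was 9945 and 3745 CPM (-1.41), Fcgbp (chr7:28071236-28120862) 14020 and 5565 CPM (-1.33), and Tff3 (chr17:31125306-31129646) 36118 and 16705 CPM (-1.11). Agr2 (chr12:35992907-36004087) was 13442 CPM in WT and 12714 CPM in KO (-0.08). Captured molecules per cell were nearly alike for Clca1, with 33.1 UMIs in WT and 27.6 in KO, and for Muc2, with 68.1 and 70.8.

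Single members of the 2 groups overlapped widely for each rule gene. The middle 80% of WT members ran from 3632 to 148268 CPM of Zg16, and that of KO members from 5332 to 113832 CPM. For Clca1 the corresponding ranges were 621 to 13511 CPM and 134 to 5548 CPM. Zg16 made up at least 0.3% of UMIs in 93.1% of WT and 97.0% of KO members, and Clca1 in 59.7% and 20.9%. Most members were therefore chosen through Zg16, more so in KO, where 76.4% passed 0.3% with Zg16 and not with Clca1 against 36.6% in WT.

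Within windows of depth most of these differences shrank, and that of Zg16 turned. At 5000 to 15000 UMIs (932 WT and 208 KO members) Zg16 was 43056 CPM in WT and 80003 CPM in KO (log2 ratio 0.89), and above 15000 UMIs it was 14055 and 31746 CPM, a ratio of 1.18. In the shallowest window it was lower in KO (-0.49). Fcgbp had log2 ratios of -0.15, -0.04 and -0.03 from the shallowest to the deepest window, and Tff3 -0.51, -0.13 and 0.01. Within the windows above 5000 UMIs, Fcgbp and Tff3 thus differed by at most 0.13 on the log2 scale.

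Muc2 and Clca1 remained lower in KO in every window, by less than over all members. The log2 ratios were -0.46, -0.39 and -0.35 for Muc2 and -0.67, -0.52 and -0.44 for Clca1. Agr2 was -0.66, 0.24 and 0.79. Windows did not make depths equal, since the median within the middle window was 7450 UMIs in WT and 10847.5 in KO.

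**Figure D2:**
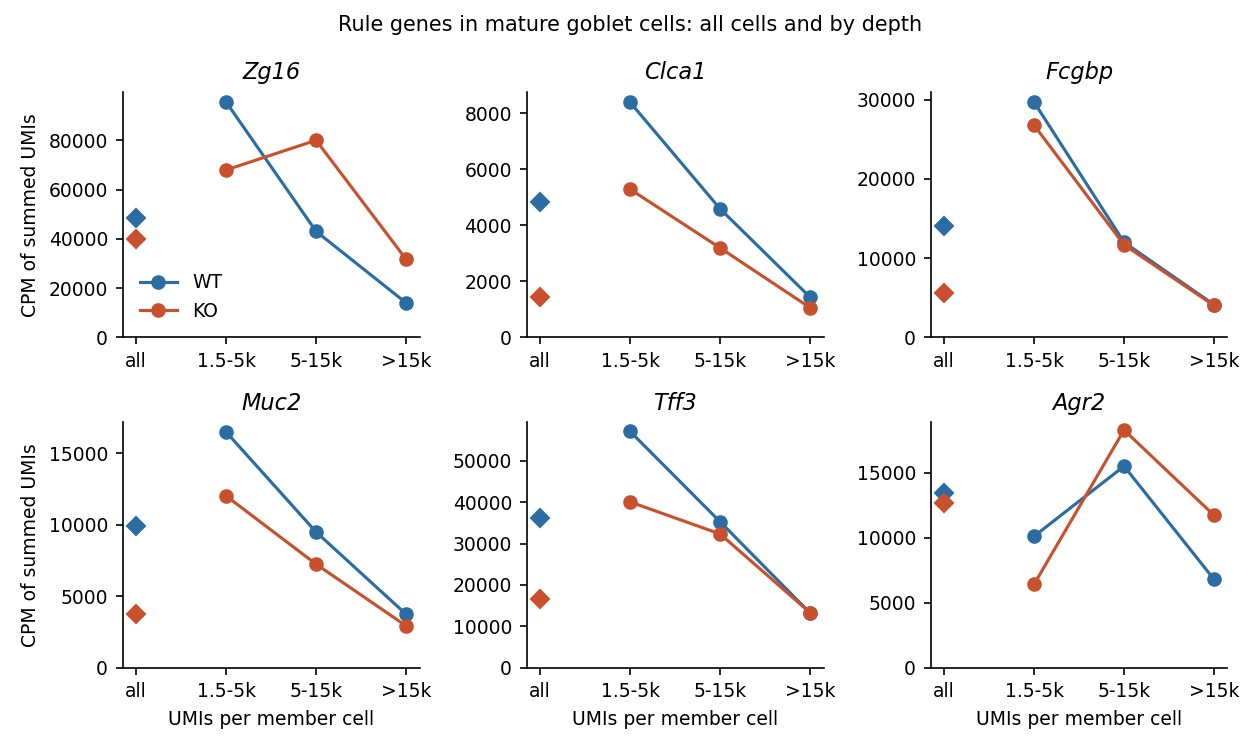
CPM of the 6 rule genes in WT and KO members, with diamonds for all members and points for members of 1500 to 5000, 5000 to 15000 and over 15000 UMIs. Levels were higher in shallow than in deep members for most genes, and the KO points of Zg16 lie above the WT points in the windows above 5000 UMIs.

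Ctnnb1, the gene whose enhancer was deleted, was lower in KO members. Its level (chr9:120929216-120960507) was 198 CPM in WT (190 to 207) and 119 CPM in KO (113 to 125), from 2150 and 1658 UMIs, and the log2 ratio was -0.74 (-0.83 to -0.65). The ratio was -0.63 at 5000 to 15000 UMIs and -0.72 above, while the shallowest window (58.6 CPM in KO) rested on 77 KO cells. In early goblet cells Ctnnb1 was 207 CPM in WT and 130 CPM in KO. After thinning, at least 1 Ctnnb1 UMI was seen in 25.8% of WT and 16.5% of KO members, beside 26.9% and 18.6% of the cells of unassigned composition. In members the level differed little along the Zg16 and Clca1 gradient, from 200 CPM in the lowest quartile of WT members to 196 in the highest, and from 121 to 119 CPM in KO.

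Lower levels were frequent among all genes, and each list below has to be read against that. Of 9135 genes with at least 100 UMIs over members, 15.5% were at least 2-fold lower in KO and 2.17% at least 2-fold higher, and 63.2% had a log2 ratio below 0. In the windows from shallow to deep, 12.7%, 16.7% and 14.5% were at least 2-fold lower and 55.7%, 71.1% and 63.2% below 0. The median log2 ratio of all genes was -0.28 in CPM and 1.19 in UMIs per cell. The ratio also moved with exon length, the summed length of all annotated exons of a gene with overlaps merged. The median ratio was 0.31 in the quartile of genes with the shortest exon length (median 1858.5 bases). It was -0.80 in the quartile with the longest (median 9292 bases). Of the 1416 genes at least 2-fold lower, 780 fell in the longest quartile.

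Junction genes, among them partners of β-catenin, were measured beside Ctnnb1. Of 19 adherens and tight junction genes 15 were lower in KO and 6 at least 2-fold lower, beside 63.2% and 15.5% of all genes. Their median log2 ratio was -0.69. Cdh1, which encodes E-cadherin, was 247 CPM in WT and 115 CPM in KO (-1.10), Ctnna1, which encodes α-catenin, 177 and 86.5 CPM (-1.03), and Ctnnd1, which encodes p120-catenin, 60.3 and 29.7 CPM (-1.02). The scaffold gene Tjp1 was 43.8 and 19.6 CPM. Claudins varied, from -1.02 for Cldn4 and -0.37 for Cldn23 to 0.07 for Cldn2, 0.12 for Cldn3 and 0.29 for Cldn15, and Cldn7 was 1013 CPM in WT and 1515 CPM in KO (0.58). Epcam, by which the cells had been sorted, differed by -0.07. In the windows above 5000 UMIs the medians of the list were -0.41 and -0.68, beside -0.36 and -0.25 for all genes, and 3 of 19 and 3 of 18 were at least 2-fold lower, beside 16.7% and 14.5%.

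Wnt target genes summed to 1268 CPM in WT and 924 CPM in KO members. That was less than in early goblet cells (1612 and 1175 CPM) but more than in Paneth cells (287 and 277 CPM) or enterocytes (164 and 163 CPM). Within windows of depth, which did not make depths equal, the measured targets were lower in KO. Over all members 9 of 12 measured targets were lower and 1 at least 2-fold lower, beside 63.2% and 15.5% of all genes. Their median was -0.41. At 5000 to 15000 UMIs 8 of 8 were lower (median -0.88, 2 at least 2-fold), beside 71.1% and 16.7% of all genes and an all-gene median of -0.36. Above 15000 UMIs 10 of 10 were lower (median -1.01, 5 at least 2-fold), beside 63.2% and 14.5% and an all-gene median of -0.25. Axin2, a feedback inhibitor and direct target, was 16.9 CPM in WT and 12.5 CPM in KO over all members. Ephb3, a receptor that positions crypt cells, was 9.50 and 4.80 CPM, and Rnf43, a ubiquitin ligase that removes Wnt receptors, 14.8 and 7.74 CPM. Ascl2, a stem cell transcription factor, went the other way at 4.43 and 7.88 CPM.

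Goblet markers that the rule had not used were lower in KO without exception over all members. All 26 had a log2 ratio below 0 and 12 were at least 2-fold lower, beside 63.2% and 15.5% of all genes. Their median was -0.89. In UMIs per cell 20 of the 26 were higher in KO. Between 1500 and 5000 UMIs 25 of 25 were lower with a median of -0.72, beside 55.7% and a median of -0.12 for all genes. At 5000 to 15000 UMIs 16 of 26 (61.5%) were lower with a median of -0.22, beside 71.1% and -0.36. Above 15000 UMIs 11 of 25 (44%) were lower with a median of 0.07, beside 63.2% and -0.25. The list thus lay below all genes only in the shallowest window. Summed over the list, levels were 32367 CPM in WT and 33178 CPM in KO in the middle window.

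Some markers were lower at every depth. Sytl2, an effector of Rab27 that tethers secretory granules, was 170 CPM in WT (162 to 177) and 28.2 CPM in KO (25.4 to 31.1), which is -2.59 on the log2 scale over all members and -1.44, -1.54 and -1.76 in the windows from shallow to deep. Klf4, a transcription factor of terminal goblet differentiation, was 323 and 108 CPM (-1.59) and -0.80, -0.75 and -0.63 in the windows. Ern2 was 119 and 39.6 CPM (-1.58). Scin, which encodes the actin-severing protein scinderin, was 328 and 94.1 CPM (-1.80), with window ratios of -2.95, -1.13 and -0.58. Outside members Sytl2 was also lower in KO, at 82.0 CPM in WT and 19.6 CPM in KO early goblet cells. The values were 26.0 and 6.25 CPM in Paneth cells and 9.41 and 1.93 CPM in unassigned cells. Scin was 42.9 and 22.9 CPM in early goblet cells. The exon length of Sytl2 is 13941 bases, in the quartile of long genes with a median of -0.80, and that of Scin is 2999 bases.

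For other markers the ratio depended on depth. Spink4, a secreted peptide of the Kazal inhibitor family, was 18618 CPM in WT and 11996 CPM in KO (-0.63), with window ratios of -0.47, 0.08 and 0.03. Guca2a, which encodes guanylin, the ligand of the guanylate cyclase C receptor, was 4589 and 3180 CPM (-0.53), with ratios of -1.04, -0.06 and 0.43. Spdef was 128 and 80.1 CPM (-0.68), with ratios of -0.42, 0.07 and 0.28, and Foxa3, another factor of the goblet lineage, was 126 and 111 CPM (-0.18), with ratios of -0.44, 0.57 and 0.70.

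Secreted antimicrobial and mucus-associated products moved in both directions. Of 19 measured, 12 were lower in KO, the same share as the 63.2% of all genes. At least 2-fold lower were 2 and at least 2-fold higher 2, beside 15.5% and 2.17% of all genes. The C-type lectins Reg3b and Reg3g were the higher pair. Reg3b was 1583 CPM in WT and 8007 CPM in KO (log2 ratio 2.34), and Reg3g 1230 and 4287 CPM (1.80). Both were higher in KO in every window, by 1.59 to 2.13 for Reg3b and 1.53 to 1.85 for Reg3g. Neither gene is particular to members, in which Reg3b stood at 0.427 and 0.567 of its level in the tuft, enterocyte and unassigned cells. Outside members Reg3b was also higher in KO, at 1043 CPM in WT and 3424 CPM in KO early goblet cells. It was 388 and 1460 CPM in Paneth cells, 7676 and 33050 CPM in enterocytes and 3095 and 10525 CPM in unassigned cells.

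Other defence products were lower or level. Retnlb, which encodes the secreted antibacterial protein RELMβ, was 72.6 CPM in WT and 12.3 CPM in KO (-2.56), from 787 UMIs in 130 WT cells and 172 UMIs in 60 KO cells. Ang4, an antibacterial ribonuclease shared with Paneth cells, was 1696 and 812 CPM (-1.06). Lypd8, which binds flagella, was 3309 and 3440 CPM (0.06). Pigr, the receptor that carries IgA across the epithelium, was 1845 and 975 CPM (-0.92).

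Of 35 measured genes of mucin O-glycan synthesis 32 were lower in KO and 16 at least 2-fold lower, beside 63.2% and 15.5% of all genes. Their median was -0.85. The initiating GalNAc transferases were among the lowest, with Galnt5 at 59.3 CPM in WT and 13.8 CPM in KO (-2.11), Galnt7 at 378 and 127 CPM (-1.57) and Galnt3 at 101 and 36.3 CPM (-1.48). C1galt1, the core 1 synthase, was 188 and 81.9 CPM (-1.20). Gcnt3, which makes the branched core 2 structure, was 168 and 77.8 CPM (-1.11). Enzymes of sialic acid supply lay near 0, with Cmas at -0.12 and Nans at -0.02. Within the windows above 5000 UMIs 26 of 31 and 25 of 33 of the list were lower (medians -0.56 and -0.49), beside 71.1% and 63.2% of all genes. In each of these windows 6 were at least 2-fold lower, close to the all-gene shares of 16.7% and 14.5%. Galnt5 was lower in each of the 3 windows by 1.19 to 1.62 on the log2 scale.

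The machinery that folds and moves secretory cargo differed less. Of 35 folding and unfolded protein response genes 30 were lower in KO and 8 at least 2-fold lower, beside 63.2% and 15.5% of all genes. Their median was -0.51, beside -0.28 for all genes. The chaperone BiP, encoded by Hspa5, was 1078 CPM in WT and 695 CPM in KO (-0.63), and the disulfide reductase gene Dnajc10 269 and 81.7 CPM (-1.72). Manf, an endoplasmic reticulum stress factor, was 510 and 615 CPM (0.27). In the deepest window 16 of 32 of these genes were lower (median -0.01), beside 63.2% of all genes (median -0.25). Their summed level there was 6946 CPM in WT and 6917 CPM in KO. For translocation and vesicle transport genes the median over all members was -0.28, the same as that of all genes.

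Of 20 measured genes of granule release 18 were lower in KO and 10 at least 2-fold lower, beside 63.2% and 15.5% of all genes. Their median was -0.89. Rab27a and Rab27b, the small GTPases that dock granules, had log2 ratios of -1.68 and -1.47. Vamp8, the granule SNARE of regulated mucin secretion, differed from these at 197 CPM in WT and 251 CPM in KO (0.35). Within the windows above 5000 UMIs 14 of 18 and 14 of 17 were lower (medians -0.68 and -0.41), beside 71.1% and 63.2% of all genes. Of these, 3 and 2 were at least 2-fold lower, shares near those of all genes in the same windows (16.7% and 14.5%).

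Of 25 transcription factors of the secretory lineage 21 were lower in KO, beside 63.2% of all genes, with a median of -0.58. At least 2-fold lower were 4, a share near the 15.5% of all genes. In the windows above 5000 UMIs 19 of 23 and 16 of 22 were lower, beside 71.1% and 63.2% of all genes. Of these, 0 and 1 were at least 2-fold lower, and the median above 15000 UMIs was -0.27 beside -0.25 for all genes. Atoh1, which commits progenitors to the secretory lineage, was 95.7 CPM in WT and 63.0 CPM in KO (-0.60), Gfi1, which acts after it, 17.3 and 6.59 CPM, and Creb3l1, a factor of secretory capacity, 166 and 69.0 CPM (-1.27). The Notch ligands Dll1 and Dll4, which secretory cells present to their neighbours, were 35.5 and 12.4 CPM (-1.52) and 15.7 and 4.66 CPM (-1.75). Hes1, a target of active Notch, was 36.3 and 34.4 CPM (-0.08).

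Membrane mucins and ion transporters gave few calls. Muc13 was 1037 CPM in WT and 536 CPM in KO (-0.95), and Muc3a 123 and 44.6 CPM (-1.46). Of 11 chloride, bicarbonate and water transport genes 5 were lower, beside 63.2% of all genes. Slc12a2, the basolateral chloride loader, was 247 and 99.4 CPM (-1.31) and Kcne3, a subunit of a basolateral potassium channel, 55.4 and 114 CPM (1.04). Among genes of microbial sensing and antigen handling 10 of 18 were lower, beside 63.2% of all genes. Pycard, the inflammasome adaptor, was 773 and 1312 CPM (0.76) and Il18 27.0 and 53.2 CPM (0.98).

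**Figure D3:**
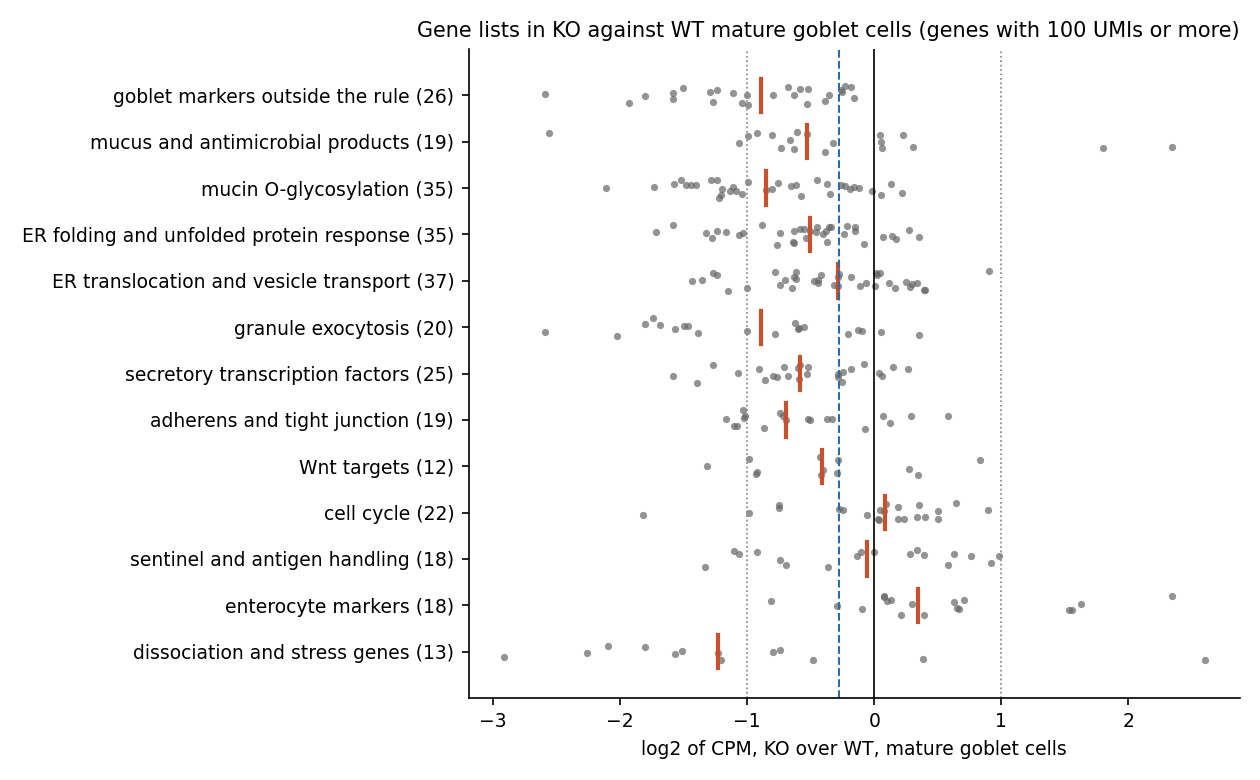
Log2 ratio of KO to WT CPM in mature goblet cells for each gene with at least 100 UMIs in 13 gene lists, with a red bar for the median of each list. The blue dashed line is the median of all 9135 genes (-0.28) and dotted lines mark 2-fold. The medians of goblet markers (-0.89), O-glycosylation (-0.85) and exocytosis (-0.89) lie below that line.

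The genes with the largest KO to WT ratios among those at least 2-fold above the tuft, enterocyte and unassigned cells differed little, with Dynll1, a dynein light chain, and C2cd4b both at 0.48 at the top. None of the 10 highest reached 2-fold, and Klk1, a kallikrein protease, was 722 CPM in WT and 844 CPM in KO (0.23). The 10 lowest ranged from -2.08 to -2.92. They held the immediate early genes Fosb (228 and 30.2 CPM) and Egr1, the ferlin family genes Myof (47.7 and 7.88 CPM) and Fer1l6 (122 and 23.1 CPM), Sytl2, Retnlb and Galnt5. The exon lengths of Myof (12603 bases), Fer1l6 (8053) and Sytl2 (13941) fall in the quartile of long genes, whose median was -0.80. So do those of Sh3pxd2a, Odf2l and Vldlr, also among the 10. Those of Fosb (6243 bases), Egr1 (4484), Galnt5 (4462) and Retnlb (696) are shorter. Of 13 immediate early and stress genes 11 were lower in KO, 8 of them at least 2-fold, beside 63.2% and 15.5% of all genes. Their median was -1.23, and their summed level was 2169 CPM in WT and 876 CPM in KO members. The sum was also lower in KO in early goblet cells (1957 and 931 CPM) and in unassigned cells (1012 and 503 CPM). Whether handling of the cells differed between the groups was not tested.

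Markers of other cell types also differed between the groups of members. Of 18 enterocyte markers 15 were higher in KO, 4 of them at least 2-fold, beside 2.17% of all genes at least 2-fold higher. Fabp6, the ileal bile acid binding protein, was 480 CPM in WT and 2430 CPM in KO (2.34), and of 7 distal enterocyte genes 6 were higher, with a median of 1.58. Of the enterocyte list, 11 of 12 and 14 of 16 were higher in KO in the windows below 15000 UMIs, but 10 of 16 were lower above (median -0.26). Summed enterocyte markers were 3615 CPM in WT and 7491 CPM in KO members, beside 5236 and 7423 CPM in the cells of unassigned composition. Of 11 Paneth markers 10 were lower, beside 63.2% of all genes. Their sum was 50295 CPM in WT and 37097 CPM in KO members beside 40078 and 29740 CPM in the unassigned cells. Between 1500 and 5000 UMIs 4 of 10 Paneth markers were lower (median 0.17), and in the deeper windows 11 of 11 and 9 of 10. In both lists the summed level differed in the same direction in the unassigned cells, and the part of these transcripts in the other results was not tested. Of 8 enteroendocrine markers 8 were lower (median -1.27), beside 63.2% of all genes. In the windows from shallow to deep 1 of 2, 5 of 6 and 3 of 6 were lower. In the deepest window 3 were at least 2-fold lower and 1 at least 2-fold higher.

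Mature and early goblet cells were compared within each matrix, apart from genes of the rule. Of 9840 genes, 1.06% (104) were at least 2-fold higher and 1.1% (108) at least 2-fold lower in mature cells in both matrices. The median log2 ratio of these genes was -0.19 in WT and -0.14 in KO, so a ratio below 0 was the commoner direction in each. How many of all genes lay on 1 side in both matrices was not counted. Of the 26 goblet markers outside the rule, 15 were higher in mature cells in both, but only Bcas1, Capn9 and Scin by at least 2-fold. The log2 ratio of mature to early cells for Scin was 2.93 in WT and 2.04 in KO, for the calpain gene Capn9 2.59 and 1.65, and for Bcas1 1.86 and 1.15. Ccl9, a chemokine gene, was higher in early cells, with ratios of -1.34 and -1.64. Of 25 secretory transcription factors 14 were lower and 3 higher in mature cells in both matrices, with Spdef at 0.22 in WT and -0.47 in KO and Atoh1 at -0.09 and -0.44. The medians of that list were -0.08 in WT and -0.27 in KO, near those of all genes. The mature and early cells of 1 matrix come from the same pool, so these values describe 2 pools and not replicates.

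The genes furthest above early cells in both matrices had diverse roles. Ido1, which degrades tryptophan, had a log2 ratio of 4.78 in WT, with 311 UMIs in 139 mature cells against 5 UMIs in early cells, and was at least 26.7-fold higher in KO, where early cells had 0 UMIs and 3 UMIs were taken as the limit. Its UMIs were not evenly spread, since 90 of its 184 UMIs in KO members lay in 5 cells. Rgs2, a regulator of G protein signalling, had ratios of 2.51 and 2.35, S100a6, a calcium-binding protein, 2.60 and 2.06, and Anxa3, an annexin, 2.96 and 2.03. Of 20 measured granule release genes 16 were higher in mature cells in both matrices, 3 of them at least 2-fold, beside 1.06% of all genes. The list medians were 0.34 in WT and 0.18 in KO, beside -0.19 and -0.14 for all genes.

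Cell cycle, stem cell and Wnt target genes were higher in early cells. Of 22 cell cycle genes 22 were lower in mature cells in both matrices, 1 of them at least 2-fold, beside 1.1% of all genes. The list medians were -0.87 in WT and -0.54 in KO, beside -0.19 and -0.14 for all genes. The list sum was 2259 CPM in WT and 2255 CPM in KO mature cells against 4108 and 3239 CPM in early cells. Of 15 Wnt targets 14 were lower, 8 by at least 2-fold, with medians of -1.18 in WT and -1.09 in KO. Of 9 stem cell markers 9 were lower, 8 by at least 2-fold, with medians of -1.59 and -1.36. Olfm4, a marker of crypt base progenitors, had log2 ratios of -1.95 and -2.12. Wnt3, a ligand made by secretory cells of the crypt base, had -2.46 and -2.32, and Rnase1 -2.47 and -2.52. Of 13 Notch pathway genes 11 were lower in mature cells in both. Their medians were -0.50 in WT and -0.40 in KO, beside -0.19 and -0.14 for all genes.

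**Figure D4:**
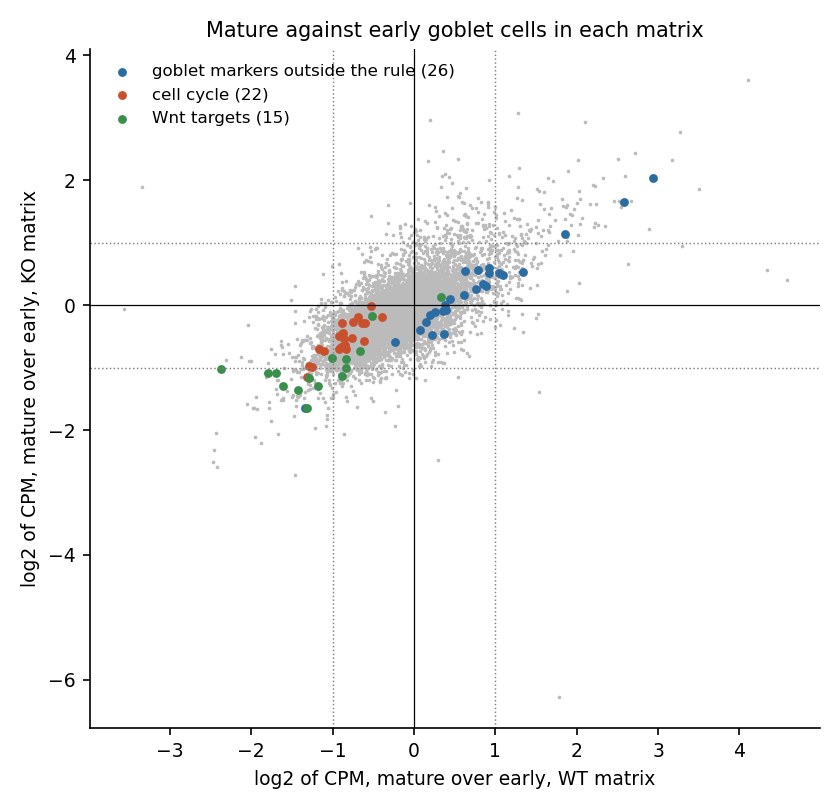
Log2 ratio of mature to early goblet cells in WT (x axis) and KO (y axis) for each gene with at least 100 UMIs and UMIs in both kinds of cell, in grey, with goblet markers outside the rule in blue, cell cycle genes in red and Wnt targets in green. All 22 cell cycle genes lie below 0 on both axes, and the goblet markers spread around and above 0.

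Cell cycle transcripts had no common direction over all members. There 15 of 22 cell cycle genes were higher in KO and the median was 0.08, while Mki67, the proliferation antigen, was 267 CPM in WT and 75.7 CPM in KO (-1.82) and Stmn1, a microtubule regulator, 216 and 402 CPM (0.90). The exon length of Mki67 is 10061 bases, in the quartile of long genes with a median of -0.80. Between 1500 and 5000 UMIs 3 of 7 were lower (median 0.27), and the summed level was 1105 CPM in WT and 1485 CPM in KO. At 5000 to 15000 UMIs 22 of 22 were lower in KO (12 at least 2-fold, median -1.09), and above 15000 UMIs 16 of 22 (median -0.33). Of all genes, 71.1% and 63.2% were lower in these windows. After thinning, Mki67 was seen in 20.01% of WT and 9.08% of KO members, beside 36.2% and 12.7% of the unassigned cells.

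Members were next ranked within each matrix by their share of Zg16 and Clca1 and split into quartiles, as a description of the range the rule spans. In WT the summed level of cell cycle genes was 3734, 2665, 1254 and 266 CPM from the lowest to the highest quartile, and in KO it was 2958, 2498, 2238 and 830 CPM. Mki67 went from 453 to 24.7 CPM in WT and from 110 to 25.2 CPM in KO. Sox4, a progenitor transcription factor, went from 60.4 to 19.1 CPM in WT and from 50.2 to 15.1 CPM in KO. The cells with the most Zg16 and Clca1 thus held the fewest proliferation transcripts in both matrices.

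Granule release genes and some goblet factors ran the opposite way. Klf4 went from 230 to 544 CPM in WT and from 70.9 to 209 CPM in KO, Sytl2 from 105 to 295 and from 18.8 to 52.9 CPM, and Foxa3 from 96.1 to 180 and from 86.9 to 168 CPM. The summed goblet markers outside the rule were 21501 CPM in the lowest and 36372 CPM in the highest WT quartile, with 38687 CPM in the quartile before it, and 14442 and 32753 CPM in KO. Spdef differed less, from 122 to 142 CPM in WT and from 70.9 to 105 CPM in KO. Other genes of the marker list did not rise. Ccl9 fell from 297 to 68.5 CPM in WT and from 192 to 85.1 CPM in KO. Creb3l1 went from 173 to 151 CPM in WT, but from 63.9 to 83.9 CPM in KO. Median depth was lower in the highest quartile, at 4797 UMIs against 7983 in the lowest quartile of WT and 12679 against 17637 in KO.

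**Figure D5:**
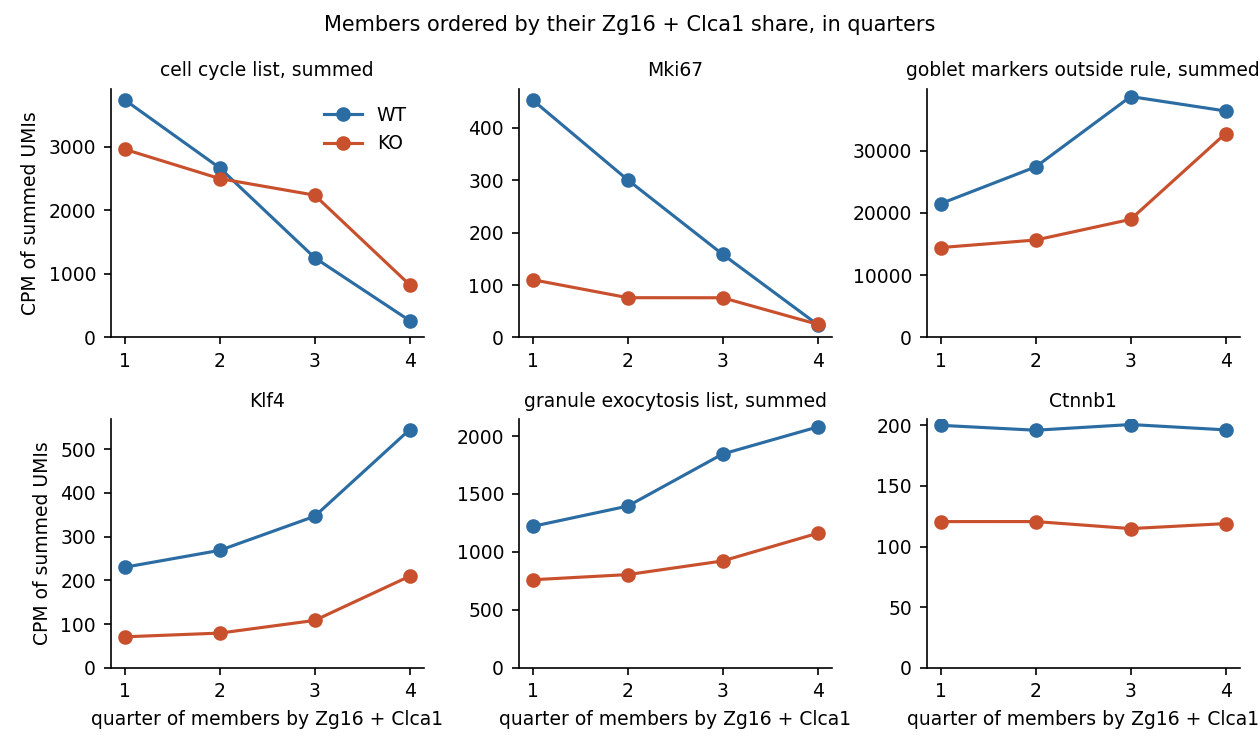
CPM over quartiles of mature goblet cells ranked by the share of Zg16 and Clca1 (lowest at left) in WT and KO, for summed cell cycle genes, Mki67, summed goblet markers outside the rule, Klf4, summed exocytosis genes and Ctnnb1. Cell cycle genes decline from 3734 to 266 CPM in WT and from 2958 to 830 CPM in KO, while Ctnnb1 lies between 196 and 201 CPM in WT and between 115 and 121 CPM in KO.

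Across members thinned to 1500 UMIs, the genes most like Zg16 were other genes of the rule. Spearman's rho over 592 genes was highest for Tff3 (0.80 over 1584 WT cells and 0.71 over 738 KO cells), followed by Muc2 (0.70 and 0.59), Fcgbp (0.75 and 0.58) and Clca1 (0.64 and 0.56), all of which had a part in choosing the cells. Outside the rule the highest were Lypd8 (0.56 and 0.46), AW112010 (0.44 and 0.45), S100a6 (0.57 and 0.44) and Ifi27l2b (0.45 and 0.32). Agr2 was hardly ordered with Zg16 in WT (0.06) and more so in KO (0.33). Spink4 was likewise at 0.21 and 0.43. The cells of 1 matrix share a library and free RNA, and these coefficients describe cells and not samples.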

How the data were processed

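Small intestinal crypt cells were loaded on Chromium microfluidic chips, and libraries of 3′ transcript ends were sequenced. The deposited values are UMI counts per gene and barcode, in 1 filtered matrix per genotype that the authors made with Cell Ranger. The matrix header names version 4.0.0, and the submitters' processing notes name version 2.1.1 and the mm10 build. The matrices held 134876816 UMIs (WT) and 123794575 UMIs (KO).

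From these counts, cells were chosen by the rule given in the report. Members of a matrix were summed, and sums were scaled to CPM. Gene levels carry exact Poisson intervals, ratios exact conditional binomial intervals and shares Clopper-Pearson intervals, all at 95% and for counting error only. Since each genotype is 1 pooled sample, no test was run, and genes with at least 100 UMIs were called at 2-fold. Members and gene lists were chosen with earlier results of these data known. Genes named outside the lists were the 10 highest and 10 lowest KO to WT ratios among genes raised in members, the 10 genes with the largest mature to early ratios each way, and the 10 most correlated with Zg16. Exon lengths, with overlapping exons of a gene merged, came from GENCODE M21, where 27645 of 27998 identifiers matched, and promoters came from RefSeq. Scrublet in scanpy 1.11.5 called 1123 of 10588 WT and 0 of 5881 KO barcodes as doublets, so it had not worked in KO and called doublets were kept. Its scores served in an alternative. The sums and ratios were tested on simulated data and computed in Python 3.11.15 with scipy 1.17.1.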

Additional observations from a re-analysis of the deposited data

Results flagged for a closer look

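Both results below are hormone transcripts of enteroendocrine cells, and they were noticed because mature and early goblet cells differed in opposite directions in the 2 matrices. For Ghrl, which encodes ghrelin, the log2 ratio of mature to early cells was 1.78 in WT and -6.27 in KO. In early KO cells 618 of 639 Ghrl UMIs lay in 1 cell, and in mature WT cells 52 of 132 lay in 1 cell. For Gcg, which encodes proglucagon, the ratio was 1.54 in WT and -1.39 in KO. In mature WT cells 71 of 92 Gcg UMIs lay in 1 cell, and in early KO cells 11 of 16 did. The difference between the matrices was not tested for either gene, since each is 1 pooled sample.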

How the results depend on the processing

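No paired analysis was possible because the samples of a genotype share 1 matrix whose columns carry no replicate number. Leaving out a replicate was not possible for the same reason. The log2 ratio of the member share (-0.25) was 0.029 with a Defa limit of 5% and -0.42 with at least 3% of UMIs from the 6 rule genes. In the depth windows, chosen after seeing the data, it was -0.91 at 5000 to 15000 UMIs and 2.59 above. Genes at least 2-fold higher in KO (198 of 9135, 2.17%) numbered 125 with genes above 1% left out of the denominator, which moved the median of all genes from -0.28 to -0.38, 328 as means over cells of CPM, and 54 of 7093 (0.761%) and 97 of 7360 (1.32%) in the windows. Genes at least 2-fold lower (1416 of 9135, 15.5%) numbered 458 of 3763 (12.2%) after thinning to 1500 UMIs, where fewer genes reached 100 UMIs. The 26 lower goblet markers of 26 became 16 of 26 and 11 of 25 in these windows, and 25 of 25 between 1500 and 5000 UMIs. Genes at least 2-fold higher in mature than early cells (104 of 9840, 1.06%) numbered 160 of 9103 (1.76%) with at least 3% from the rule genes and 68 of 4792 (1.42%) after thinning. The Ctnnb1 log2 ratio (-0.74) was -0.85 with genes above 1% left out and -0.63 at 5000 to 15000 UMIs.

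Of 56 named genes, 53 to 56 kept their direction between genotypes under the alternatives other than the windows, 44 at 5000 to 15000 UMIs and 39 above. Among those at least 2-fold different over all members, directions turned above 15000 UMIs for Tff3 (0.0082), Bcas1 (0.066) and Capn9 (0.24). Between mature and early cells they turned for Enpp3 (-0.013) and Bex1 (0.40) after thinning, and for Gip at Zg16 and Clca1 of at least 0.6% (-1.43), without the highest Scrublet scores (-0.26) and at 5000 to 15000 UMIs (-1.14). The cause was not tested. WT members above 15000 UMIs number 79, which limits that window.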

Other observations

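Enteroendocrine transcripts differed in how evenly members held them. Of 543 Gip UMIs in WT members 395 lay in 1 cell, and of 262 in KO members 70 did. Chgb, which encodes a secretogranin of hormone granules, had 759 UMIs in 186 WT members and 309 UMIs in 49 KO members. Retnlb was uneven too, since 288 of its 418 UMIs in early KO cells lay in 5 cells.

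Barcodes outside the quality limits also held goblet composition. Below 1500 UMIs they were 472 of 2507 barcodes in WT (18.8%, 17.3 to 20.4) and 282 of 2777 in KO (10.2%, 9.06 to 11.3). Above the mitochondrial limit they were 19 of 672 in WT (2.83%) and 30 of 1786 in KO (1.68%).

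Gm42418, an annotated locus that overlaps ribosomal RNA repeats, was 13237 CPM in WT members and 900 CPM in KO members, a log2 ratio of -3.88. It was lower in KO in each depth window, by 2.84 to 3.37 on the log2 scale, and its level in early goblet cells was likewise lower, with 12073 CPM in WT and 932 CPM in KO.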
